A study of Mus musculus with 9 samples.

Results

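The forkhead box (Fox) genes encode transcription factors that share a winged-helix DNA-binding domain. They are described here across poly(A) RNA of mouse testis before and after precipitation with an antibody against N4-acetylcytidine (ac4C), a base modification of RNA written by the acetyltransferase NAT10. The members were every protein-coding gene whose GENCODE symbol consists of Fox, one subfamily letter from a to s, and a number. This rule, which uses no measured value, found 44 of the 55401 genes in the deposited table, and the table holds 21897 protein-coding genes.

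The 9 libraries came from wild-type male mouse testis. The methods name the ICR stock for the study's mice, and the age of the animals behind these libraries is not given in the sources used here. The input group is poly(A) RNA before precipitation, the IgG group is RNA recovered with an isotype control antibody, and the acRIP group is RNA recovered with the anti-ac4C antibody, with 3 libraries in each. All were made by Smart-seq2, which primes reverse transcription at the poly(A) tail, and the amount of precipitated RNA that entered the IgG and acRIP libraries was not measured, so values are relative to each library's total. The sources used here do not say whether the 3 libraries of a group are separate animals, separate precipitations or repeats of one, and p-values then measure only the spread between these libraries.

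Forkhead proteins contact DNA through a recognition helix in the winged-helix domain, and the subfamilies differ mainly outside it. FoxO proteins leave the nucleus when insulin or growth factor signalling activates AKT, and Foxo1 marks and maintains spermatogonial stem cells. Foxj1 is the master activator of motile cilium genes, Foxm1 acts with the MuvB complex on genes of the G2 and M phases, and Foxa factors open compact chromatin in endoderm. FoxC, FoxF and FoxS factors are known from mesenchyme and from cells of the vessel wall, and Foxl2 belongs to the granulosa cells of the ovary. In whole-testis RNA, fewer cells of a type and less RNA per cell cannot be told apart.

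Since ac4C is a modified cytidine, the cytidines of the coding stretch that nearly all members share are shown first. For 6 of the members on which the results turn, the coding strand of the recognition helix is printed below, 10 codons or 30 bases from the mouse genome (GRCm38/mm10), with each C at the third position of a codon in capitals. The first 3 lines are the members recovered above both controls, and the other lines are members recovered below both.
Foxn2: aattctgttcggcataatctatcCctgaat
Foxa3: aaCtcCatCcggcattcgctgtcCttCaat
Foxd4: aaCagCatCcgCcaCaaCctgtcgctCaaC
Foxc1: aaCagCatacggcaCaaCctCtcgctCaaC
Foxf1: aaCtcCgtgcgCcaCaaCctgtcgctCaaC
Foxs1: aaCagCatCcgCcataaCctgtctctCaaC
The stretch was found by its coding pattern in 43 of the 44 members and not in Foxr1. It lies at chr17:88463198-88463227 (plus strand) in Foxn2, chr7:19014678-19014707 (minus) in Foxa3 and chr19:24900361-24900390 (minus) in Foxd4. It lies at chr13:31807577-31807606 (plus) in Foxc1, chr8:121084678-121084707 (plus) in Foxf1 and chr2:152932913-152932942 (minus) in Foxs1. All are within coding exons.

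Cytidines at the third codon position differed widely in number among genes that encode nearly the same helix. The number among the 10 codons ran from 1 to 10, with a median of 7 over the 43 members. Among the members recovered above both controls, Foxn2 had 1, Foxa3 5 and Foxd4 8. Among the 4 recovered below both it ran from 2 to 7, so the numbers of both sets overlap. The stretch of Foxd4 is identical to those of Foxd3 and Foxl1. Foxd3 had no count in any library and Foxl1 had 1 count, in input, so their recovery cannot be compared with that of Foxd4. The deposited counts come from uniquely mapped reads, and how many reads were lost to such shared stretches was not tested.

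Library totals ran from 22023925 to 31340090 counts in input, 14647542 to 18786779 in IgG and 16025779 to 18639134 in acRIP. The label of the tissue was borne out by the spermatid markers (Acrv1, Tnp1, Tnp2, Prm1, Prm2, Spaca1), whose summed level was 26264 to 33638 FPKM in every library. FPKM is the count scaled by the length of the gene's merged exons and by the library's total, and CPM is the count scaled by the total alone. No library was a copy of another, and the groups were compared with edgeR's quasi-likelihood test over all 22510 genes that passed its filter on low counts. A gene was called when its Benjamini-Hochberg adjusted p was under 0.05 and its fold change over 2.

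At least 1 count was found for 37 Fox genes in input, 29 in IgG and 24 in acRIP. No count was found in any of the 9 libraries for 7 members, which are Foxa1 and Foxa2 (endoderm), Foxd1 and Foxd3 (kidney stroma and neural crest), Foxe1 (thyroid), Foxi2 and the ovarian factor Foxl2. A count of 0 allows up to 3 counts, for counting error only. The filter kept 23 members, and 14 others were counted but too low to test. Of the 23, 15 had at least 10 counts in every library of all 3 groups, 4 did so in 2 groups, 3 in 1 group and 1 in none. Members that passed through 1 group alone had to be low elsewhere, so counts over the tested members describe them and do not speak for the family.

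Foxj1 was the most abundant Fox mRNA per length in input, at 11.8 ± 0.572 FPKM (SD, n = 3). Foxh1, the DNA-binding partner of SMAD2 in Nodal signalling, followed at 5.87 ± 0.382, then Foxk2 at 3.51 ± 0.256, Foxm1 at 2.84 ± 0.348 and Foxo3 at 2.63 ± 0.0907. The libraries of Foxj1, Foxh1 and Foxk2 were apart from those of the next gene down, while those of Foxm1 and Foxo3 overlapped. Foxr1 (1.84) and Foxp1 (1.76) overlapped each other, as did in turn Foxp4 (1.31), Foxa3 (1.29), Foxs1 (1.22) and Foxk1 (1.15). The other tested members were below 1 FPKM in input, with Foxn2 at 0.627 and Foxo1 at 0.201 ± 0.0472.

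The order by level changed after precipitation. In acRIP the 5 highest were Foxj1 (21.6 ± 1.80 FPKM), Foxm1 (10.5 ± 1.14), Foxk2 (8.50 ± 0.304), Foxh1 (6.56 ± 0.954) and Foxo3 (3.73 ± 0.152), each apart from the gene above it. In IgG Foxk2 (10.9 ± 0.325) and Foxm1 (7.81 ± 0.560) stood behind Foxj1 (18.1 ± 0.429), and Foxh1 was at 2.87 ± 0.0916.

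**Figure D1:**
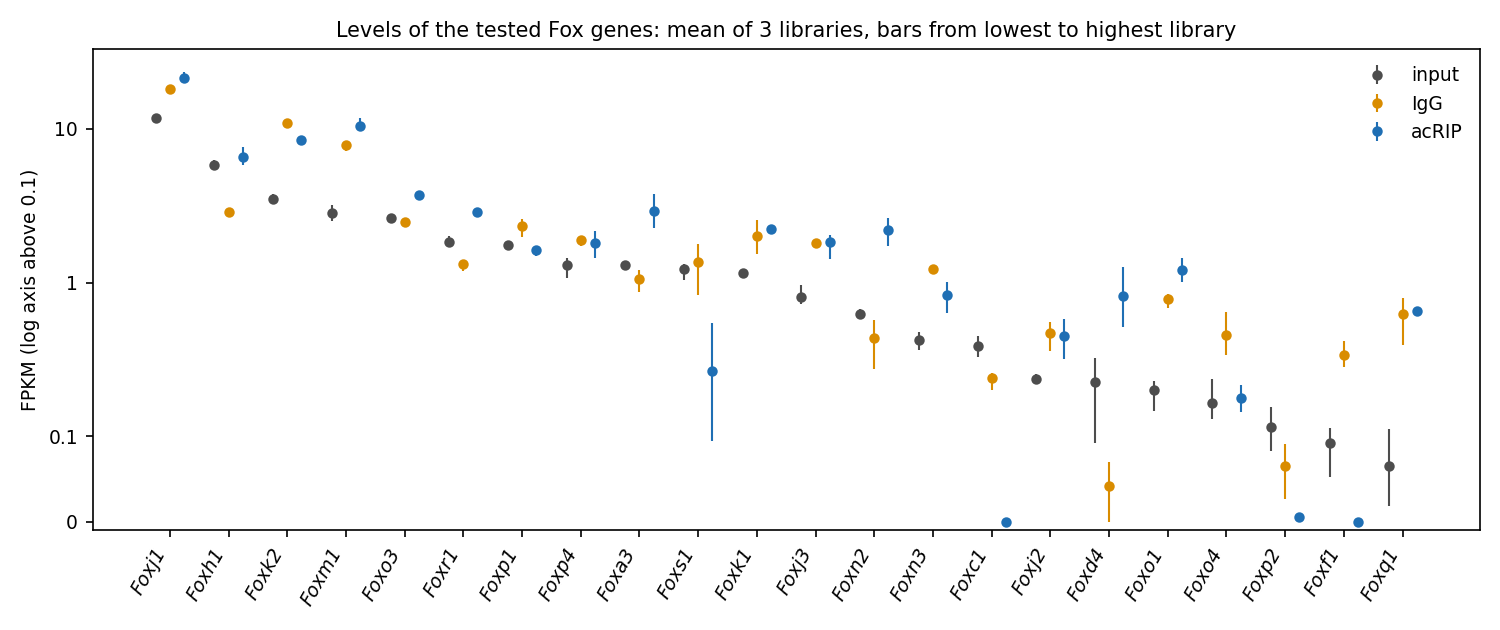
Levels of 22 of the 23 tested Fox genes, ordered by input level, in FPKM on an axis that is logarithmic above 0.1, with points for the mean of 3 libraries and bars from the lowest to the highest library. Foxj1 is highest in each group, at 11.8 in input, 18.1 in IgG and 21.6 in acRIP, while Foxc1 and Foxf1 are at 0 in acRIP.

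The first question was which Fox mRNAs the anti-ac4C antibody recovered more than the control antibody did. Foxd4, Foxn2, Foxa3, Foxh1 and Foxr1 were higher in acRIP than in IgG, and Foxc1, Foxf1, Foxp2, Foxs1 and Foxo4 were lower. These 5 and 5 are 21.7% each of the 23 tested, beside 11.5% of all tested genes called higher and 20.9% called lower. The median log2 fold change of the 23 was 0.13, against -0.09 over all genes tested, and over the 37 counted members without the filter it was 0.00.

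Foxn2, a relative of the checkpoint factor Foxn3, gave the firmest rise. Its counts were 136, 110 and 100 in input, 62, 38 and 62 in IgG, and 203, 360 and 282 in acRIP. Every acRIP library was above every library of the other groups. The log2 fold change over IgG was 2.42 (SE 0.22, edgeR adjusted p = 9.38e-11), a 5.34-fold difference, and that over input was 1.90 (SE 0.20, adjusted p = 9.32e-10).

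Foxa3, the only Foxa gene counted, is a liver and gut factor whose loss in mice impairs the testis. It had 82, 61 and 56 counts in input, 26, 46 and 41 in IgG, and 124, 100 and 78 in acRIP. In CPM the acRIP libraries again stood above all others. On the log2 scale acRIP was 1.50 over IgG (SE 0.28, edgeR adjusted p = 2.3e-05) and 1.24 over input (SE 0.26, adjusted p = 0.000109). A test against a fold of 2 ended the call over input (adjusted p = 0.185).

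Foxd4, a single-exon gene active in the early neural plate, rested on few reads. It had 16, 14 and 4 counts in input, 2, 0 and 2 in IgG, and 40, 24 and 17 in acRIP. The groups did not overlap in CPM, with IgG lowest and acRIP highest. Summed over libraries, 81 counts in acRIP against 4 in IgG gave a ratio of 21.2 with a 95% counting interval of 7.97 to 79.7, or 5.43 to 179 if both mates of a pair were counted and the counts are halved. The fitted log2 fold change over input was 1.91 (SE 0.63, edgeR adjusted p = 0.0078), and it missed the threshold when acRIP replicate 1 was left out (1.45, adjusted p = 0.0977). Without IgG replicate 2, which held 0 counts, the value over IgG moved from 4.30 to 3.71 and stayed called. IgG against input was -2.40 (edgeR adjusted p = 0.0235), a call lost without IgG replicate 2 (-1.79), input replicate 1 (-2.26) or input replicate 2 (-2.09).

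Foxh1 and Foxr1 were called higher than IgG but not than input. Foxh1 had 239, 172 and 191 counts in input, 59, 71 and 73 in IgG, and 135, 149 and 175 in acRIP. The IgG libraries were the low ones, and acRIP overlapped with input. On the log2 scale acRIP was 1.24 over IgG (SE 0.20, edgeR adjusted p = 2.29e-06) and 0.24 over input, and IgG was -1.003 against input. That last value lies at the fold limit, and its call was lost without IgG replicate 2 (-0.97), without input replicate 3 (-0.95) and without any 1 of the acRIP libraries (-0.999 each). Foxr1, a divergent and little studied member, had 122, 102 and 92 counts in input, 46, 59 and 51 in IgG, and 100, 129 and 113 in acRIP. The rise over IgG was 1.19 (SE 0.23, edgeR adjusted p = 4.21e-05), and acRIP was 0.73 over input, under the fold limit.

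Against input, the antibody fraction held a larger share of Foxo1, Foxm1, Foxk2 and other Fox mRNAs. The 11 members higher in acRIP were Foxq1, Foxo1, Foxm1, Foxd4, Foxn2, Foxk2, Foxj3, Foxa3, Foxn3, Foxk1 and Foxj2. They are 47.8% of the 23, beside 17.7% of all genes. Foxc1, Foxf1, Foxp2 and Foxs1 were called lower, 17.4% beside 22.9% of all genes, Foxf1 with a bound of only 1.20-fold against 3 counts. The median log2 fold change of the 23 was 0.96, and that of all genes was -0.10. It rests on the members that the filter kept, and over all 37 counted members it was 0.15 without the filter and 0.17 with DESeq2.

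The comparison of IgG with input shows what was recovered without the ac4C antibody. In IgG, 9 members were called higher (Foxq1, Foxo1, Foxf1, Foxk2, Foxn3, Foxm1, Foxo4, Foxj3 and Foxj2), 39.1% beside 13.5% of all genes. Foxd4 and Foxh1 were called lower, 8.70% beside 7.22%. The median log2 fold change of the 23 was 0.55, and that of all genes was -0.01. Over the 37 counted members without the filter the Fox median was 0.40, and over the 30 members that DESeq2 tested it was 0.93. Both comparisons use the same 3 input libraries, so their values are given side by side below and no agreement between them is counted.

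**Figure D2:**
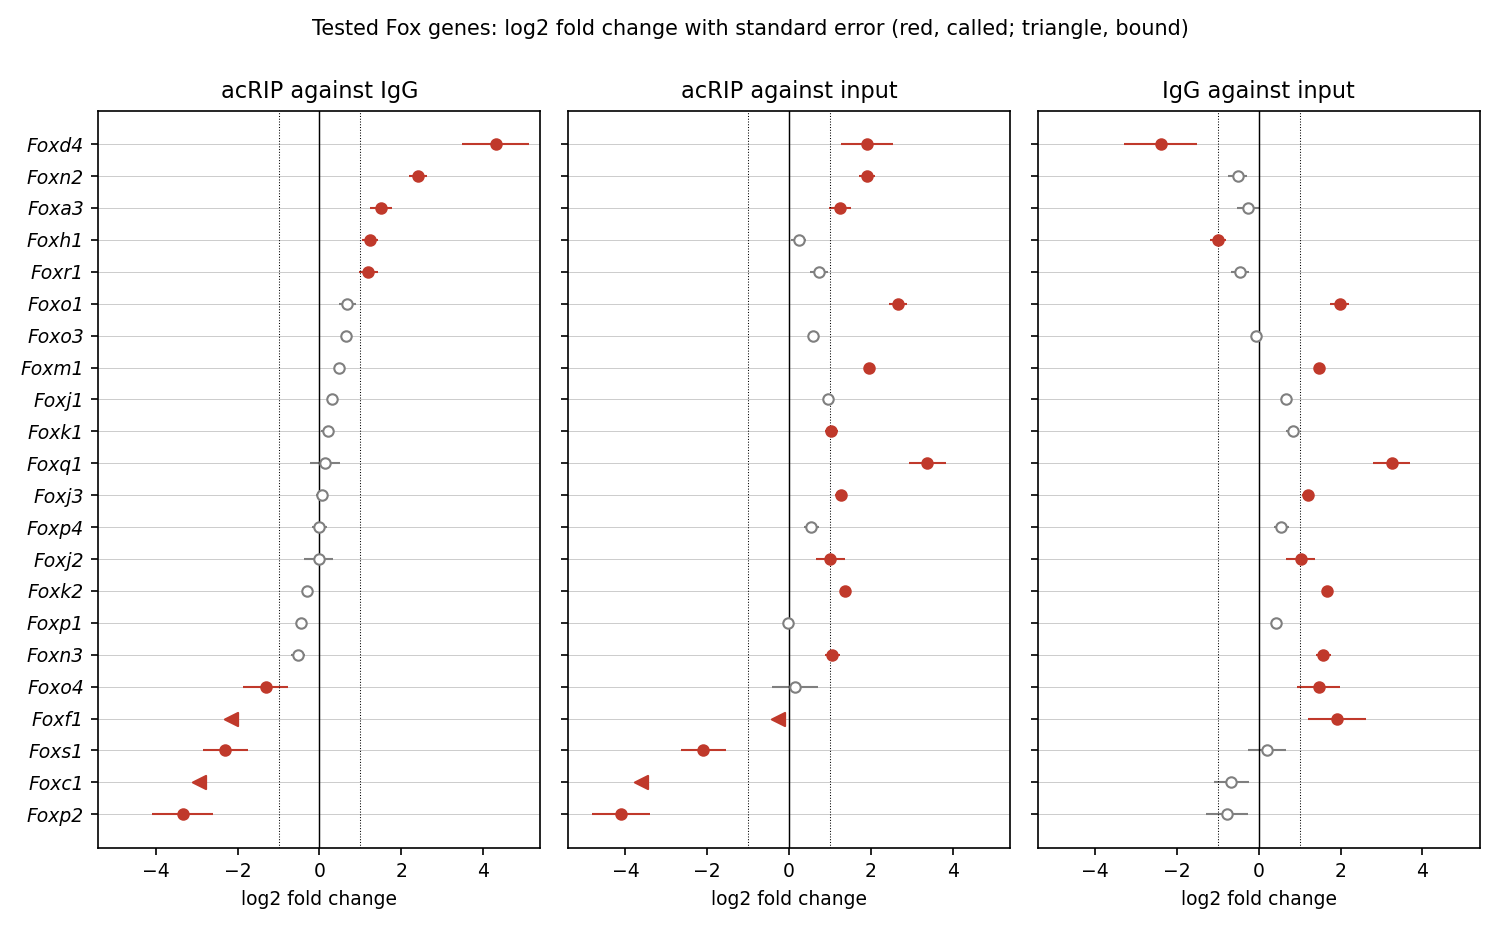
Log2 fold changes of 22 of the 23 tested Fox genes in the 3 comparisons, with the standard error as the bar, called genes in red, and dotted lines at a fold change of 2. Triangles mark Foxc1 and Foxf1 where acRIP held no counts, drawn at the lower bound computed against 3 counts. Foxn2, Foxa3 and Foxd4 lie to the right of zero in both acRIP panels, while Foxo1, Foxm1 and Foxk2 lie to the right against input and within a fold of 2 against IgG.

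Of the FoxO genes, Foxo1 differed most from input. It had 62, 28 and 44 counts in input, 105, 112 and 136 in IgG, and 140, 235 and 172 in acRIP. The 3 groups did not overlap in CPM. The log2 fold change over input was 2.66 in acRIP (SE 0.23, edgeR adjusted p = 6.27e-12) and 1.98 in IgG (SE 0.23, adjusted p = 1e-08), and acRIP over IgG was 0.68 (SE 0.21, adjusted p = 0.00491), under the fold limit.

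Foxo3, which restrains primordial follicle activation in the ovary and is widely expressed, was within a fold of 2 in every comparison. Its counts were 624, 454 and 427 in input, 261, 352 and 365 in IgG, and 445, 551 and 460 in acRIP, with log2 fold changes of 0.58 in acRIP and -0.06 in IgG over input. The acRIP libraries were above both other groups in CPM, by 0.64 over IgG (SE 0.11), and this did not reach a fold of 2. The X-linked Foxo4 had only 26, 10 and 10 counts in input, 20, 22 and 42 in IgG, and 8, 14 and 10 in acRIP. It was called lower in acRIP than in IgG at -1.32 (SE 0.54, edgeR adjusted p = 0.0345), and the call was lost without IgG replicate 3 (-0.98), acRIP replicate 1 (-1.18) or acRIP replicate 3 (-1.28). IgG over input was 1.47, a call lost without IgG replicate 3 (1.13), input replicate 2 (1.31) or input replicate 3 (1.32). Foxo6 was too low to test, with 22 counts in IgG against 2 in acRIP.

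The FoxJ, FoxK and FoxM genes differed by less than a fold of 2 between the antibodies. Foxj1, the most abundant, had 920, 682 and 718 counts in input, 678, 900 and 901 in IgG, and 990, 1040 and 880 in acRIP. In CPM its groups did not overlap, but the log2 fold changes of 0.96 (acRIP over input, SE 0.08), 0.66 (IgG over input) and 0.30 (acRIP over IgG) all missed the fold limit. Without acRIP replicate 3 the first was 1.02 and was called. Of the markers of efferent duct and multiciliated epithelium, where Foxj1 also acts, Pax8 had no count in any library and the 5 markers together were at 2.75 to 3.86 FPKM in input, 2.46 to 3.44 in IgG and 1.59 to 1.91 in acRIP. Of the 3 tested, Slc9a3 was lower in acRIP than both controls, with 54, 36 and 27 counts in input, 28, 64 and 34 in IgG and none in acRIP. Pax2 was higher than input in acRIP (1.27, edgeR adjusted p = 0.0206) and in IgG (1.46, adjusted p = 0.0119), and Krt8 was called in no comparison. Their part in the level of Foxj1 was not tested.

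Foxm1 was higher than input in both precipitates. It had 579, 352 and 322 counts in input, 697, 862 and 769 in IgG, and 891, 1078 and 1139 in acRIP, apart in all 3 groups in CPM. The log2 fold change over input was 1.96 in acRIP (SE 0.10, edgeR adjusted p = 3.94e-18) and 1.48 in IgG (SE 0.10, adjusted p = 1.01e-14). Foxk2, which with Foxk1 promotes aerobic glycolysis, had 534, 434 and 414 counts in input, 869, 1051 and 1064 in IgG, and 687, 853 and 763 in acRIP. Its IgG libraries were the highest, with log2 fold changes over input of 1.67 in IgG (SE 0.08, edgeR adjusted p = 9.09e-18) and 1.36 in acRIP. Foxk1 had 284, 190 and 189 counts in input, 284, 280 and 218 in IgG, and 251, 324 and 298 in acRIP, and overlapped between the precipitates (0.20). It was 1.03 over input in acRIP, and 0.83 in IgG (1.0001, called, without IgG replicate 3).

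The spermatogenesis-linked factors Foxj2 and Foxj3 did not separate the 2 antibodies. Foxj2 had 38, 30 and 27 counts in input, 28, 50 and 55 in IgG, and 39, 32 and 52 in acRIP, with log2 fold changes over input of 1.01 in acRIP and 1.03 in IgG. Both lie close to the fold limit, and leaving out 1 library ended each call. The first was lost without acRIP replicate 3 (0.80), input replicate 1 or input replicate 3 (0.99 each), and the second without IgG replicate 2 (0.99) or replicate 3 (0.90). Foxj3, an activator of Mef2c, had 251, 232 and 178 counts in input, 277, 365 and 394 in IgG, and 359, 292 and 372 in acRIP. The precipitates overlapped, at 1.26 and 1.20 over input for acRIP and IgG, and 0.06 (SE 0.14) between them.

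Foxn3 and Foxq1 were counted more in the precipitates than in input. Foxn3, a checkpoint suppressor, had 152, 93 and 122 counts in input, 208, 269 and 261 in IgG, and 156, 215 and 122 in acRIP. It was 1.05 above input in acRIP, just past the limit (0.89 without acRIP replicate 2 and 0.96 without input replicate 2, neither called), and 1.58 above it in IgG. Foxq1, an epithelial factor, had the largest fitted rise over input, with 10, 2 and 12 counts in input, 56, 36 and 62 in IgG, and 50, 60 and 54 in acRIP. Its log2 fold changes were 3.38 in acRIP (SE 0.45, edgeR adjusted p = 6.7e-08) and 3.25 in IgG (SE 0.45, adjusted p = 2.5e-07). Foxq1 shares 3200 of its 4843 exonic bases (66.1%) with A530084C06Rik on the opposite strand, and since the use of strand in counting is not given in the sources used here, its reads and those of that gene cannot be told apart.

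Only Foxn2, Foxa3 and Foxd4 of the tested members were higher in acRIP than in both IgG and input by a fold over 2, the lower of the fold limits that the methods name for acetylated mRNAs. They are 13.0% of the 23 tested members, beside 7.88% of all genes tested, which include genes that are not protein-coding. Of the 15522 tested protein-coding genes, 912 were higher than both and 2496 lower. Foxc1, Foxf1, Foxp2 and Foxs1 were called lower than both, 17.4% beside 17.0%. The Foxf1 call against input rests on the fitted value, since its bound against 3 counts was only 1.20-fold. The higher share rests on 3 genes and the lower share is close to the background. Foxd4, Foxf1 and Foxp2 reached 10 counts in every library only in acRIP, IgG and input, in that order. The limit given above for members that passed through 1 group alone applies to their calls. With a ratio of group mean FPKM + 1 over 2 as the rule, a form the study also used, and limma's unadjusted p under 0.05 on the log2 values, none of the 37 counted members passed in either direction, beside 1.97% of 35699 genes passing as higher and 2.36% as lower. With 0.1 in its place, Foxn2, Foxa3 and Foxd4 passed as higher, beside 5.08% of all genes, and Foxs1 and Foxc1 as lower, beside 10.9%.

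**Figure D3:**
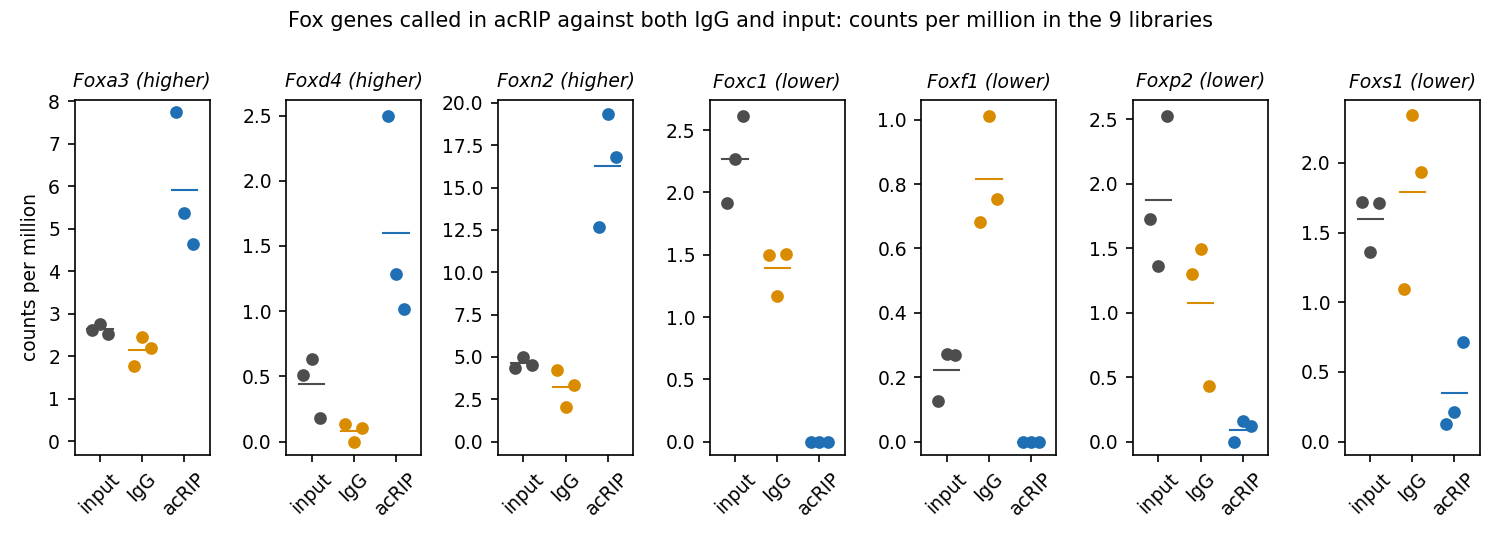
CPM (counts scaled by the library's total) of the 7 Fox genes called in acRIP against both controls, 1 point per library and a line at the mean of 3. Foxa3, Foxd4 and Foxn2 have all acRIP points above the others, Foxc1 and Foxf1 have all acRIP points at 0, and Foxp2 and Foxs1 have acRIP points below the others but not all at 0.

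Foxc1, a regulator of mesenchyme and of eye and vessel development encoded by a single exon, had no count in the antibody fraction. It had 60, 50 and 58 counts in input, 22, 22 and 28 in IgG, and 0 in every acRIP library. Against 3 counts in acRIP, it was at least 12.2-fold lower than input and at least 7.67-fold lower than IgG, or 6.10-fold and 3.83-fold against 3 read pairs. Its edgeR adjusted p was 6.19e-09 against input and 1.94e-07 against IgG. Such a loss was not particular to Foxc1: of 2104 tested genes with 20 to 100 counts in every input library and at least 20 in every IgG library, 199 (9.46%) had no count in any acRIP library. Among the 1334 of these that are protein-coding, 144 (10.8%) had none.

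Foxf1, needed for lung and gut mesenchyme, also had no count in acRIP. It had 4, 6 and 6 counts in input and 10, 19 and 14 in IgG, so that acRIP was at least 4.49-fold lower than IgG (2.24-fold against 3 read pairs) and at least 1.20-fold lower than input, with no bound over 1 against 3 read pairs. Its edgeR adjusted p was 5.42e-05 against IgG and 0.0051 against input. IgG was 1.91 over input, a call lost without any 1 of the input libraries (1.60 to 2.07), IgG replicate 2 (1.73) or IgG replicate 3 (1.97). The related Foxf2 had 4, 0 and 2 counts in input and none elsewhere. Foxc2, a lymphatic and venous valve factor that lies between Foxf1 and Foxl1 on chromosome 8, had 4, 0 and 2 in input, 4 in each IgG library and 0 in acRIP, and Foxd1 had none anywhere.

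Foxp2 and Foxs1 were low but not empty in acRIP. Foxp2, known for its part in vocal learning, had 54, 30 and 56 counts in input, 19, 28 and 8 in IgG, and 0, 3 and 2 in acRIP. Its count ratio was 18.0 for input over acRIP (95% counting interval 7.55 to 56.4, or 6.01 to 190 with halved counts) and 10.5 for IgG over acRIP (4.24 to 33.6, or 3.24 to 112), and its edgeR adjusted p was 6.14e-06 and 0.000252. Without acRIP replicate 2 the fitted log2 fold changes moved to -4.73 and -3.96 from -4.11 and -3.34. Foxs1, a marker of pericytes, had 54, 30 and 38 counts in input, 16, 44 and 36 in IgG, and 2, 4 and 12 in acRIP. The log2 difference was -2.30 against IgG (SE 0.55, edgeR adjusted p = 0.00056) and -2.10 against input (SE 0.55), and without acRIP replicate 3 these were -3.28 and -3.08.

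Of the other FoxP genes, Foxp1 and Foxp4 stayed within a fold of 2. Foxp1, which is expressed in many tissues, had 710, 539 and 568 counts in input, 478, 513 and 667 in IgG, and 328, 437 and 395 in acRIP. Its acRIP libraries overlapped input (-0.02) and were at -0.45 against IgG (SE 0.11, edgeR adjusted p = 0.00053). Foxp4, with 114, 198 and 150 counts in acRIP and 144, 178 and 158 in IgG, was at 0.00 between the antibodies. Foxp3, the regulatory T cell factor, had 4, 9 and 4 counts in input, none in IgG, and 0, 0 and 2 in acRIP, and was not tested. Its count ratio of input over acRIP was 5.48, with a 95% counting interval of 1.30 to 48.9 that included 1 when counts were halved to read pairs (0.691 to 229).

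Foxc1, Foxf1 and Foxs1, the tested members of the FoxC, FoxF and FoxS subfamilies, were called lower in acRIP than both controls. So were 17.0% of all genes. The list that grouped them also held Foxq1, which was 3.38 above input in acRIP (log2 scale) and 0.13 above IgG. Markers of mesenchyme and vessel wall did not move one way. Of 4 peritubular cell markers, Tagln was higher in acRIP than both and none was lower. Of 4 endothelial markers, Cdh5 and Tek were higher than both and Pecam1 was lower, and their summed level was 1.69 to 2.17 FPKM in input, 1.33 to 1.94 in IgG and 5.02 to 6.51 in acRIP. Of the 4 tested macrophage and T cell markers, Csf1r, Cd68 and Cd3g were lower than both, and the summed level of the 5 on the list was 4.33 to 5.64 FPKM in input, 4.77 to 7.20 in IgG and 0.350 to 1.06 in acRIP. Their part in the Fox results was not tested.

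Of 5 tested spermatogonial markers beside Foxo1, Zbtb16, the PLZF factor of undifferentiated spermatogonia, was higher in acRIP than both controls. Gfra1, the GDNF receptor, was lower than both. Over all genes tested, 7.88% were higher than both and 17.0% lower. Stra8 was called lower in acRIP than IgG (-1.07), and Uchl1 and Kit were called in no comparison. Zbtb16 had 31, 26 and 48 counts in input, 20, 50 and 46 in IgG, and 145, 148 and 184 in acRIP. Gfra1 had 358, 194 and 252 counts in input, 166, 195 and 279 in IgG, and 46, 46 and 49 in acRIP. No marker of spermatocytes or of spermatids, of 5 and 6 tested, was called against both. Of 6 tested Sertoli cell markers, Dhh was lower than both, and of 6 Leydig cell markers none was called in any comparison.

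Genes that act above and below the Fox factors were read from lists. Of 27 tested genes of PI3K-AKT-FoxO signalling, none was higher in acRIP than both controls and 5 were lower, a share near the 17.0% of all genes called lower than both. These were the insulin receptor Insr, the PI3-kinase subunits Pik3cb and Pik3r1, the mTORC2 subunit Rictor and the FoxO kinase Sgk1. Sgk1 had 147, 114 and 108 counts in input, 62, 84 and 67 in IgG, and 0 in every acRIP library. Insr was -3.24 against IgG and -2.90 against input on the log2 scale.

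Of 19 tested FoxO target genes, none was called against both controls. Over input, 6 were higher in acRIP, beside 17.7% of all genes, and 7 in IgG, beside 13.5%. Among them Gadd45a had the largest rise, at 3.39 above input in acRIP and 4.15 in IgG. Klf2, a quiescence factor, was 2.94 and 2.55 above it, Pink1 2.65 and 2.88, and the cell-cycle inhibitor Cdkn1b 1.64 and 1.15. Egr4 (1.78) and Lhx1 (1.06) were called in acRIP alone, and Ccng2 (1.32) and Sesn3 (1.16) in IgG alone. Irs2, an adaptor of the insulin receptor on both lists, was 2.94 above input in IgG and -2.87 in acRIP against IgG.

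Of 26 tested FoxM1 and MuvB cell-cycle genes, Cdc25b, Kif20a and Ube2c were lower in acRIP than both controls and none was higher, beside 17.0% and 7.88% of all genes. Kif20a, a cytokinesis kinesin, had 2080, 1762 and 1626 counts in input, 226, 365 and 345 in IgG, and 148, 123 and 135 in acRIP, and IgG too was called lower than input. The list for FOXJ1, RFX factors and motile cilia held the RFX factors themselves and other regulators beside cilium components. Of its 20 tested genes, Ccno and Dnah11 were lower than both and none was higher. Neither this list nor the FoxM1 list held a larger share called against both than all genes did. Rfx2, the RFX factor of spermatids, was -0.35 in acRIP against IgG and 0.27 against input.

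Among the members at 0 in acRIP, Foxc1 alone had at least 10 counts in every input library. Of the 13 that had counts in another group and none in acRIP, 5 are single-exon genes, as are 14 of the 44. Their median GC content over merged exons was 57.7%, beside 54.9% for the 24 members counted in acRIP. The median was 56.1% over all 44 members, 58.0% over the members not tested and 48.4% over all protein-coding genes. Foxn4, a retinal and spinal cord factor not tested, had 12, 0 and 0 counts in input and 16, 18 and 6 in IgG, at least 4.35-fold above acRIP (2.17-fold against 3 read pairs).

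The remaining members were at or near the limit of detection. Foxe3, the lens factor, had 2, 2 and 3 counts in input, 10, 0 and 3 in IgG, and 10, 8 and 3 in acRIP. Foxb2 and Foxd2 were counted in input and IgG but not in acRIP. Foxb2 had 5, 4 and 0 counts in input and 0, 2 and 12 in IgG, and Foxd2 had 0, 0 and 4 in input and 2, 7 and 5 in IgG. Foxb1, Foxi1, Foxi3, Foxl1, the thymus factor Foxn1 and Foxr2 were counted in input alone, with 1 to 6 counts each over the 3 libraries.

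GC content did not order the tested members by recovery. The GC content of the 3 higher than both controls ran from 41.8% (Foxn2) to 61.4% (Foxd4), and that of the 4 lower from 38.8% (Foxp2) to 59.2% (Foxs1). Across the 23 genes, Spearman's rho between GC content and the log2 fold change of acRIP over IgG was 0.08, and with the share of codons ending in C it was -0.07. These are descriptions across genes that share the same 6 libraries, and genes are not independent replicates. Over all tested protein-coding genes, the share called higher than both was 6.13% below 40% GC and 4.51% from 40 to 45%. It was 5.24% from 45 to 50%, 6.18% from 50 to 55%, 7.20% from 55 to 60% and 10.6% above 60%. The share called lower was 19.2% below 40% and 12.0% above 60%. In the bins between it was 16.4%, 15.8%, 15.3% and 16.8%, from low to high GC, without a steady fall. The part of GC content in the Fox calls was not tested.

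**Figure D4:**
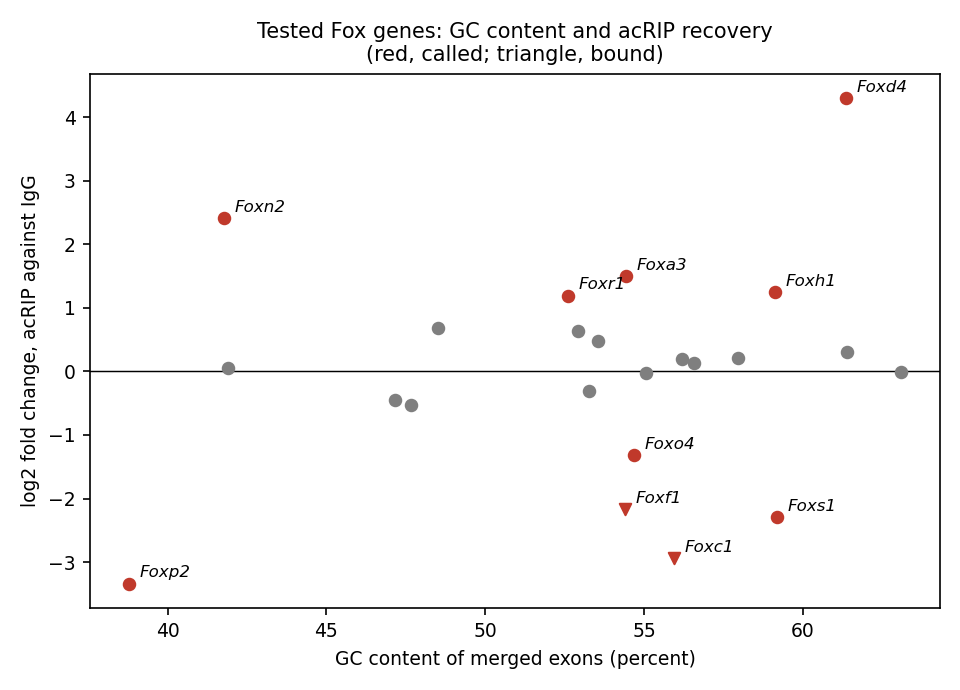
Log2 fold change of acRIP over IgG against the GC content of merged exons, in percent, for the 23 tested Fox genes, with called genes in red and triangles for the lower bounds of Foxc1 and Foxf1. Called genes lie above and below zero at both low and high GC content, as Foxn2 at 41.8% and Foxp2 at 38.8% do.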

How the data were processed

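The authors deposited counts, whole numbers of uniquely mapped reads per gene without normalization, with each gene's length. Per the labels and methods, reads were trimmed with Trim Galore 0.6.7, mapped to mm10 with STAR 2.7.10a and counted with featureCounts 2.0.2. The annotation release, strand setting and treatment of mates are not given in the sources used here, and 80.2% of Fox counts from 1 to 20 were even, so bounds are also given against 3 read pairs (6 counts). Symbols came from GENCODE vM21, matched on identifiers without version (55141 of 55401), and sequences from the RefSeq GRCm38 genome.

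The quasi-likelihood fit was run in R 4.3.3 with edgeR 4.0.16 (filterByExpr, TMM, 1 mean per group over 9 libraries, glmQLFTest, Benjamini-Hochberg over all genes tested). DESeq2 1.42.0, which the methods name, and limma 3.58.1 on log2(FPKM + 1), were alternatives. FPKM used the total count on genes. Counting intervals are exact binomial at 95% and cover counting error only. The scripts were tested on simulated data. Genes were named by a written rule: members called against both controls, the 3 highest in input, the extremes of each comparison and listed members. The values of 1 tested member, and some helix stretches, are not reported here. The Fox members, marker lists and pathway lists were chosen with earlier results of these data known.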

Additional observations from a re-analysis of the deposited data

How the results depend on the processing

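Of 36 called pairs of gene and comparison, 22 stayed called under every alternative that gave a value and 0 changed sign. Of 33 uncalled pairs, 31 were called under none. Foxn2 stayed called against both controls under each alternative of the count test.

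Testing against a fold of 2 left 3 Fox genes higher in acRIP than IgG, 6 higher than input, 1 higher than both (Foxn2), and 5 higher and 0 lower in IgG than input. No filter gave 9 lower in acRIP than IgG. Using only the 6 libraries compared left 2 lower in acRIP than both and 0 lower in IgG than input. A minimum of 10 counts, or halved counts, each left 1 lower in IgG than input. Ratios of FPKM + 1 left 0 higher and 0 lower than both, and FPKM + 0.1 left 2 lower. Leaving out 1 library gave 0 to 2 lower in IgG than input (0 without IgG replicate 2).

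The median log2 fold change of IgG over input was 0.45 with upper quartile factors, 0.93 with DESeq2, 0.40 with no filter, 0.67 with 6 libraries and 0.60 to 0.81 without 1 library. For acRIP over IgG it was 0.0503 with DESeq2, 0.00 with no filter and 0.0324 to 0.18 without 1 library. For acRIP over input it was 0.17 with DESeq2, 0.15 with no filter (both over 37 members) and 0.80 to 0.99 without 1 library. Summed input FPKM was 38.2 with TMM sizes against 39.2.

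Libraries that share a replicate number deviated together little (correlations from -0.00659 to 0.0351). A library's best match among the 3 libraries of another group had its own number in 9 of 18 cases. With the replicate number as a block, 10 were higher in acRIP than input, 8 higher in IgG than input and 4 lower in acRIP than IgG. The block ended the calls of Foxj2 in acRIP over input, Foxf1 in IgG over input and Foxo4 in acRIP against IgG, and no other. At the depth of these libraries, 14 counted members were too low to test. The bounds against read pairs and the halved-count intervals were chosen after seeing the data.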
